A study of Mus musculus with 4 samples.

Results

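Toll-like receptors are membrane proteins that recognise conserved microbial molecules, and Cd14 is a surface protein that hands bacterial lipopolysaccharide to Tlr4. The members were chosen by symbol: Tlr1 to Tlr9 and Cd14, 10 of the 18820 genes that the arrays measured through probe sets with exactly 1 symbol. Each member had 1 probe set, and 7 of the 10 had a mean level at or above the level floor, the median of all genes' means (5.55 on the log2 scale). Their mean levels lay between percentile 26.6 (Tlr6) and percentile 73.1 (Tlr5) of all genes. Tlr1, Tlr4 and Tlr6 lay below the floor, so their ratios are ratios between low values, and Tlr2 reached it with propionate and butyrate only. Tlr6, at a mean of 3.94, was under 4.14, the 95th percentile of the mean levels of 1157 olfactory and vomeronasal receptor genes. These families were taken as not used by liver, which was not tested gene by gene.

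The samples were 4 pools of liver RNA from male C57Bl/6J mice aged 16 to 17 weeks, all on a palm oil diet for 6 weeks and all fitted with a catheter in the cecum, the pouch at the start of the large intestine. Conscious mice, briefly fasted, were infused for 6 h at 0.2 ml/h. The acids, each at 0.3 M, were carbon-13 labelled acetate (sodium [1-13C]acetate, 6 mice), sodium [2-13C]propionate (6 mice) and sodium [2,4-13C2]butyrate (4 mice). Control mice received phosphate-buffered saline (6 mice). The acids, which differ in chain length and are products of bacterial fermentation in the gut, were each delivered at 2.4 mmol/h/kg. Each pool was hybridised to 1 array, so no value has a replicate check or an error, and every difference is the log2 ratio of 2 pools. With 1 array a group no test can be made, and the words higher and lower describe these pools only.

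Toll-like receptors bind their ligands with an outer domain of leucine-rich repeats and signal through an inner TIR domain, which recruits the adaptors Myd88 or Ticam1 and leads to NF-kappaB and interferon regulatory factors. Among Tlr1 to Tlr9, receptors of lipids and proteins sit on the cell surface, and those of nucleic acids in endosomes. In the liver, which receives blood from the gut, Toll-like receptors are best known from Kupffer cells, the resident macrophages. Several are also made by endothelial cells and hepatocytes.

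The pools differed in RNA of other tissues, and the butyrate pool stood apart in that of skeletal muscle and intestine. Of 10 skeletal muscle markers, 9 were at least 1.5-fold below control, led by Myl1 and Mb (log2 ratios of -3.15 and -2.98). Of 9 intestinal markers, 3 were at least 1.5-fold higher, led by Muc2 and Lypd8 at 2.98 and 2.97. The median of the intestinal markers was 0.35, and 4 of the 9 lay at or above the floor on average. With acetate and propionate 0 of the 10 muscle markers and 0 of 9 intestinal markers passed 1.5-fold in either direction. Pancreatic markers were lower in all 3 acid pools, with medians of -0.85, -0.63 and -0.33 over 7 genes with acetate, propionate and butyrate. Of the 7, 6 were at least 1.5-fold lower with acetate, 5 with propionate and 0 with butyrate. Sycn and Cela1 stood at -1.11 and -1.10 with acetate. Of 10 hepatocyte markers 0 passed 1.5-fold against control in any acid pool. Their log2 ratios ran from -0.044 to 0.35 with acetate, -0.019 to 0.21 with propionate and -0.28 to 0.078 with butyrate. Alb and Ttr, named outside the rule for named genes, differed from control by at most 0.066. Whether RNA of other tissues had a part in the receptor values was not tested.

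Of the 10 genes, 2 were at least 1.5-fold higher with butyrate than in the control pool, 1 was with propionate and 0 were with acetate, and 0 were lower by that fold in any pool. Cd14 and Tlr1 passed the fold with butyrate and Tlr1 with propionate. Of all 18820 genes, 0.728% were higher by the same fold with butyrate, 0.776% with propionate and 0.696% with acetate, and 0.616%, 0.489% and 0.494% were lower. The median log2 ratio of the 10 genes was 0.15 with butyrate, 0.050 with propionate and 0.018 with acetate, beside medians over all genes of -0.0029, -0.0075 and 0.0020. Above control at any distance were 8 of the 10 genes with butyrate, 7 with propionate and 6 with acetate, beside 49.0%, 47.8% and 50.5% of all genes. In RNA of whole liver, fewer cells of a type and less RNA per cell cannot be told apart. With so few genes, 1 or 2 past the fold are a description of those genes and not of the family. As a guide to array noise, the log2 ratios of the 1157 receptor genes not used by liver had an SD across genes of 0.16 with acetate, 0.18 with propionate and 0.17 with butyrate, and 4 to 5 of the 10 members lay within that SD of 0 in each comparison. Those genes lie lower on the scale than nearly all members, so the SD is a guide only.

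**Figure D1:**
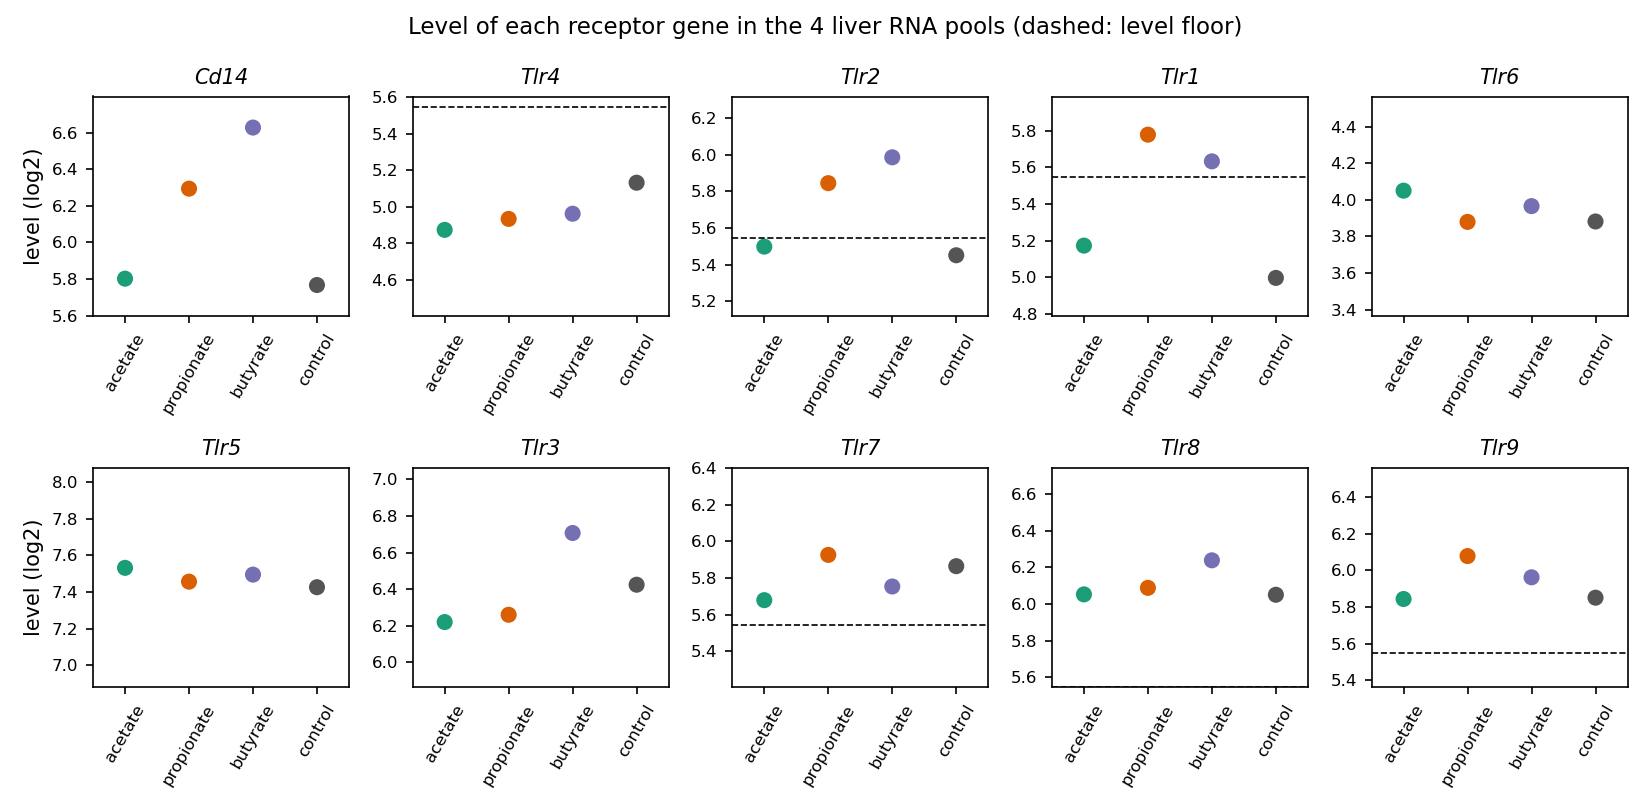
Level of each gene on the log2 scale (vertical axes, each spanning the same range around its gene) in the acetate, propionate, butyrate and control pools, with 1 array per point and the level floor of 5.55 dashed where it falls in view. Cd14, Tlr2 and Tlr1 are higher in the propionate and butyrate pools than in the acetate and control pools, while Tlr5 spans only 0.11 over the pools.

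Among the receptors of lipopolysaccharide, Cd14 had the widest span of the 10 genes. It stood at 5.80 in the acetate pool, 6.29 in the propionate pool and 6.63 in the butyrate pool, against 5.77 in the control pool. The butyrate and propionate pools were the high ones, and acetate and control lay within 0.035 of each other. Cd14 was thus 1.82-fold above control with butyrate, 1.44-fold with propionate and 1.02-fold with acetate. Of the 9410 genes at or above the floor, 0.234% had a higher ratio than Cd14 with butyrate, 0.871% with propionate and 35.6% with acetate.

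Tlr4, the receptor that signals for lipopolysaccharide, did not share that pattern. Its level was 4.87 with acetate, 4.93 with propionate and 4.96 with butyrate, against 5.13 in control, all below the floor. Control was the high pool, and the ratios were -0.26, -0.20 and -0.17, beside noise SDs of 0.16, 0.18 and 0.17. The partners of Tlr4 were measured too and differed little from control (they were named outside the rule for named genes, after their values were seen). Ly96, which binds lipopolysaccharide together with Tlr4, was at 8.93, 8.69 and 8.96 with acetate, propionate and butyrate, against 8.74 in control. Lbp, the plasma protein from hepatocytes that carries lipopolysaccharide to Cd14, was at 11.61, 11.73 and 11.86, against 11.71 in control. Of these 4 genes of lipopolysaccharide recognition, only Cd14 passed 1.5-fold in any of the 3 comparisons with control.

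Tlr2 recognises bacterial lipopeptides in pairs with Tlr1 or Tlr6, which differ in the lipids they accept. Tlr2 and Tlr1 were both higher with propionate and with butyrate, and Tlr6 was not. RefSeq promoters (build GRCm38.p6) were searched for 7 of the 10 members. No entry was at hand for Tlr4 and Tlr7, and Cd14 was left out of the search. The promoters of Tlr1 and Tlr2 are shown because these partners were higher in the same pools. That of Tlr3 is shown beside them because Tlr3 was higher with butyrate only. Each runs from 250 bases before to 50 after the annotated start, 5′ to 3′ on the gene's strand. Capitals mark matches, on either strand, to GAGGAA (the core bound by PU.1, a macrophage transcription factor, and other ETS factors), TGANTCA (AP-1), GAAANNGAA (part of the interferon-stimulated response element) or the kappaB consensus of NF-kappaB.
Tlr1 promoter, chr5:64933509-64933808, minus strand: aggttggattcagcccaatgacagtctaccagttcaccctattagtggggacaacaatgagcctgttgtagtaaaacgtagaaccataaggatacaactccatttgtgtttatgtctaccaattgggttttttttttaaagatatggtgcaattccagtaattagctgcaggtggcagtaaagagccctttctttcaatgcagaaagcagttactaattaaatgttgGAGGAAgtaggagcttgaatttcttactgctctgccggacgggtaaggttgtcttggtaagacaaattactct
Tlr2 promoter, chr3:83841559-83841858, minus strand: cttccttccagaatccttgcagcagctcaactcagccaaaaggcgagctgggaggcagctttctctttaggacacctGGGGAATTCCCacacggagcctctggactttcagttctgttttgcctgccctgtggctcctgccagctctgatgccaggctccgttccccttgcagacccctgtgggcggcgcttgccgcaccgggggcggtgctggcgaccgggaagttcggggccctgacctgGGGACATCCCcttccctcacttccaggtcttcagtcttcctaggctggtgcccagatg
Tlr3 promoter, chr8:45410331-45410630, minus strand: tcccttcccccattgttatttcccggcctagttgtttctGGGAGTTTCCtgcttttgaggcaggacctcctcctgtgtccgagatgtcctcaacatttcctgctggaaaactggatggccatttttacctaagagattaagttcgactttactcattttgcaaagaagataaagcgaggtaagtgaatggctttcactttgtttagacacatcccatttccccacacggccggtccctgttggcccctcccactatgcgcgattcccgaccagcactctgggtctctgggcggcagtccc
In the Tlr1 promoter the marked run is GAGGAA, with its first base at -23 from the start, and the second Tlr1 promoter in the table held none of the 4 motifs. In the Tlr2 promoter the capitals are kappaB matches with first bases at -173, -172 and -8, the first 2 overlapping, and in the Tlr3 promoter a kappaB match begins at -211. Among all 32851 promoters of the same length, 28.3% held GAGGAA, 4.51% the kappaB consensus, 8.56% GAAANNGAA and 7.81% TGANTCA. Of the 7 members searched, 2 held the kappaB consensus (Tlr2 and Tlr3) and 3 held GAGGAA (Tlr1, Tlr8 and Tlr9). GAAANNGAA was held by 2 (Tlr6 and Tlr8) and TGANTCA by 1 (Tlr9). A member was counted if any of its promoters held the motif, while the shares are of single promoters. The 7 members had 9 promoters, as Tlr1 and Tlr6 had more than 1, and Tlr6 held GAAANNGAA in only 1 of its own. A match describes letters in the window and is not evidence of binding.

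The Tlr1 level was 5.17 in the acetate pool, 5.78 in the propionate pool and 5.63 in the butyrate pool, against 5.00 in control. Propionate was the highest pool, and the propionate and butyrate values alone lay above the floor. Tlr1 was 1.72-fold above control with propionate, 1.56-fold with butyrate and 1.13-fold with acetate.

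Tlr2 stood at 5.50 with acetate, 5.84 with propionate and 5.99 with butyrate, against 5.45 in control. The order of the pools was that of Cd14, over a narrower span. The ratios to control were 1.45-fold with butyrate, 1.31-fold with propionate and 1.03-fold with acetate, all short of 1.5-fold. Its levels in the acetate and control pools lay below the floor.

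Tlr6 was at 4.05, 3.88 and 3.97 with acetate, propionate and butyrate, against 3.88 in control, values near background. Its ratios to control were 0.17, -0.0022 and 0.084 on the log2 scale. In RefSeq's gene order Tlr1 and Tlr6 are neighbouring protein-coding genes, so the ratios of 0.78 for Tlr1 and -0.0022 for Tlr6 with propionate belong to adjacent genes.

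Tlr5, the receptor of bacterial flagellin, varied least of the 10 genes. It stood at 7.53 with acetate, 7.46 with propionate and 7.50 with butyrate, against 7.43 in control. All 3 ratios, from 0.030 to 0.11, lay within the noise SD.

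Tlr3, the endosomal receptor of double-stranded RNA, was at 6.22 with acetate, 6.26 with propionate and 6.71 with butyrate, against 6.42 in control. Butyrate was the high pool, 1.22-fold above control, and acetate and propionate were the low ones, 1.15-fold and 1.12-fold below control. The ratio with butyrate was 0.28 and those with acetate and propionate -0.20 and -0.16. Tlr3 thus had its widest difference between acid pools, not against control.

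Tlr7 and Tlr8 encode receptors of single-stranded RNA and are neighbours on the X chromosome. Tlr7 was at 5.68 with acetate, 5.93 with propionate and 5.75 with butyrate, against 5.86 in control, with ratios of -0.19, 0.061 and -0.11. Tlr8 was at 6.05, 6.09 and 6.24, against 6.05 in control, with ratios of 0.0020, 0.038 and 0.19. Neither gene differed from control by more than 0.19 in any pool. Tlr9, the receptor of DNA with unmethylated CpG, stood at 5.84, 6.08 and 5.96 with acetate, propionate and butyrate, against 5.85 in control. Its ratio of 0.23 with propionate was its largest, and those with acetate and butyrate were -0.0071 and 0.11.

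**Figure D2:**
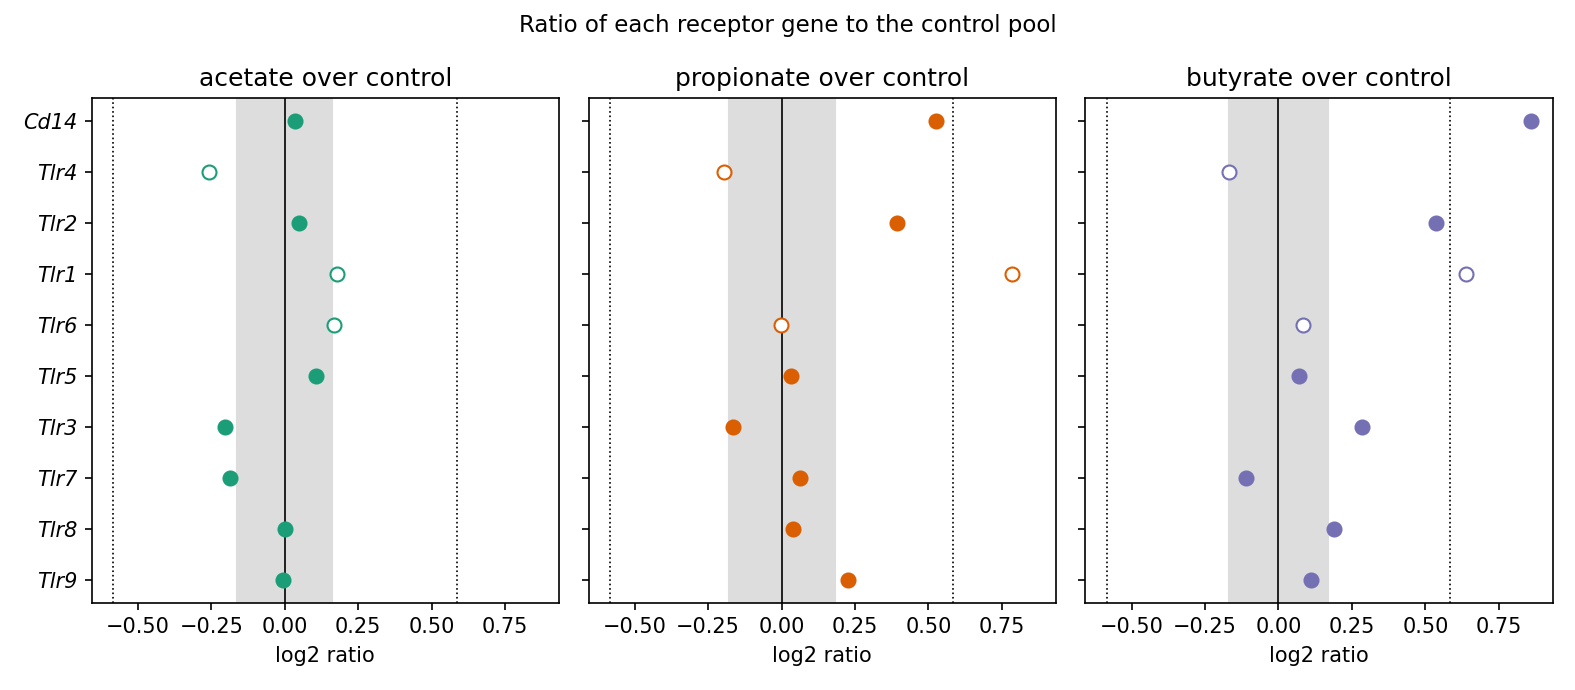
Log2 ratio to the control pool (horizontal axis) of each gene with acetate, propionate and butyrate, where filled points are genes with a mean level at or above the floor and open points genes below it. The grey band is the SD across 1157 receptor genes taken as not used by liver, and dotted lines mark 1.5-fold. Cd14 (0.86 with butyrate) and Tlr1 (0.78 with propionate, 0.64 with butyrate) lie beyond the line. With acetate the 10 genes lie between -0.26 and 0.18.

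Dose and duration were matched across the acids, and the 3 pairs of acid pools were compared directly, again with no test and no interval. In the propionate pool against the acetate pool, 1 of the 10 genes was at least 1.5-fold higher (background 0.383% of all genes), namely Tlr1 at 1.52-fold, and 0 were lower by that fold (background 0.213%). Cd14 followed at 1.41-fold and Tlr2 at 1.27-fold. In the butyrate pool against the acetate pool, 1 of the 10 was higher by that fold (background 0.914%), namely Cd14 at 1.77-fold, and Tlr2 and Tlr3 stood at 1.40-fold each and Tlr1 at 1.38-fold. None of the 10 was lower by that fold in the butyrate pool than in the acetate pool (0 of 10, background 0.956%). In the butyrate pool against the propionate pool, 0 of the 10 passed the fold in either direction (background 0.425% higher and 0.845% lower). Its largest ratios were those of Tlr3 (1.36-fold) and Cd14 (1.26-fold), while Tlr1 and Tlr7 stood at log2 ratios of -0.15 and -0.17. Both acids with a longer chain than acetate thus had higher levels of Cd14, Tlr1 and Tlr2 than acetate, and the difference between butyrate and propionate was smaller for each of these 3 genes. Since the 3 comparisons with control share 1 control pool, and the pairs of acids share pools too, these values are not independent of one another.

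Over the 4 pools the 10 genes fell into a few patterns. The butyrate pool held the highest value of 4 genes (Cd14, Tlr2, Tlr3 and Tlr8), propionate that of 3 (Tlr1, Tlr7 and Tlr9), acetate that of 2 (Tlr5 and Tlr6) and control that of 1 (Tlr4). The lowest value was in the control pool for 5 genes (Cd14, Tlr1, Tlr2, Tlr5 and Tlr8), in the acetate pool for 4 (Tlr3, Tlr4, Tlr7 and Tlr9) and in the propionate pool for 1 (Tlr6), and butyrate held 0. The distance from the lowest to the highest pool ran from 0.11 for Tlr5 to 0.86 for Cd14 and was at least 1.5-fold for 2 of the 10 genes, Cd14 and Tlr1. Among the surface receptors the spans were 0.78 for Tlr1, 0.54 for Tlr2, 0.26 for Tlr4, 0.17 for Tlr6 and 0.11 for Tlr5. Among the endosomal receptors they were 0.49 for Tlr3, 0.25 for Tlr7, 0.23 for Tlr9 and 0.19 for Tlr8. Neither place in the cell was thus marked by wide or narrow spans alone.

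Mice carry 3 further Toll-like receptors, of which 0 passed 1.5-fold against control. Tlr13, which recognises bacterial ribosomal RNA, was at 6.49 with acetate, 6.65 with propionate and 6.89 with butyrate, against 6.36 in control, and its ratio of 0.52 with butyrate was close to that of Tlr2 (0.54). Tlr12, a receptor of protozoan profilin, was at 5.22, 5.69 and 5.43, against 5.23 in control, and Tlr11, another profilin receptor, lay between 3.08 and 3.44, near background in every pool.

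Of 11 measured partners, chaperones and processing enzymes of the receptors, 7 lay above control with acetate, 7 with propionate and 8 with butyrate, with median log2 ratios of 0.087, 0.22 and 0.32, and 0, 1 and 1 passed 1.5-fold, each time upward. Cd180, a surface protein of B cells and macrophages related to Tlr4, was at 6.64, 7.29 and 6.91 with acetate, propionate and butyrate, against 6.46 in control, or 1.79-fold higher with propionate. Ly86, which binds Cd180 as Ly96 binds Tlr4, was at 8.36, 8.58 and 8.89, against 8.20 in control, or 1.62-fold higher with butyrate. This pair thus had its highest values in different pools, as did Tlr1 and Tlr2. Of helpers named outside the rule, after their values were seen, Cd36, a scavenger receptor that assists Tlr2 with Tlr6, had log2 ratios of 0.58, 0.56 and 0.35, and Unc93b1, which escorts the nucleic acid receptors to endosomes, of 0.040, 0.22 and 0.32. Cnpy3, a chaperone of the receptors, went the other way, at -0.41, -0.40 and -0.074.

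Adaptors lay below control in most cases, by small amounts: all 5 with acetate and with propionate and 4 of 5 with butyrate, 0 of them by 1.5-fold, with medians of -0.21, -0.20 and -0.11. Ticam1, the adaptor of Tlr3 and Tlr4 that leads to interferon, was at 7.56, 7.43 and 7.66, against 7.77 in control, and Ticam2, which links Ticam1 to Tlr4, lay below the floor at 4.69, 4.97 and 4.85, against 5.07 in control. Control was the high pool for both, as it was for Tlr4. Further down the pathway 0 of 13 kinases and ubiquitin enzymes (medians of 0.072, 0.083 and 0.026), 0 of 11 transcription factors (0.0085, 0.016 and 0.010) and 0 of 15 inhibitors (0.00015, 0.020 and 0.048) passed 1.5-fold with acetate, propionate or butyrate. Their largest ratios with butyrate were those of Irak3, a brake on Myd88 signalling in macrophages (0.58), Tnfaip3, a ubiquitin-editing enzyme that NF-kappaB induces (0.43), and Fos, a part of AP-1 that lay below the floor (0.41). With acetate the kinase Ikbke stood at -0.46, the NF-kappaB subunit Nfkb2 at 0.34 and the ubiquitin-conjugating enzyme Ube2n at 0.067 (0.26 with butyrate). Not among the measured genes were Irak1, Irak4, Traf3, Chuk and Ripk1 of the list of kinases and ubiquitin enzymes. Nfkb1 of the transcription factors and Il1rl1 of the inhibitors were not measured either, so these lists cover the pathway only in part.

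Of 24 measured transcripts known to be raised by ligands of these receptors, 5 were at least 1.5-fold higher with propionate, 5 with butyrate and 0 with acetate. The background was 0.776%, 0.728% and 0.696% of all genes in the same order, and 0 of the 24 were lower by that fold. The medians were 0.14 with propionate, 0.12 with butyrate and 0.085 with acetate. Over the 10 of the 24 at or above the floor on average, they were 0.17, 0.43 and 0.085. Cxcl1, a chemokine of neutrophils, was at 8.36, 8.90 and 8.63 with acetate, propionate and butyrate, against 7.99 in control, and passed the fold with propionate and butyrate (log2 ratios of 0.91 and 0.64). Cxcl10, a chemokine induced by interferon, was at 6.27, 5.92 and 6.84, against 5.94 in control, and passed it with butyrate (0.90). The chemokine Ccl5 was at 6.34, 6.83 and 7.03, against 6.24 in control, and passed it with propionate (0.59, at the threshold) and butyrate (0.79). Cxcl1 was highest in the propionate pool, like Tlr1, and Cxcl10 and Ccl5 in the butyrate pool, like Cd14. The other targets past the fold lay below the floor and are named outside the rule. They were Tnf (0.81), Ccl3 (0.71) and Ccl2 (0.62) with propionate and Acod1 (0.84) and Ccl3 (0.66) with butyrate. Of 12 sensors of other families 0 passed the fold (medians of -0.023, 0.021 and 0.078 with acetate, propionate and butyrate). With acetate Clec7a, the beta-glucan receptor of macrophages, stood at 0.51 and the protease Casp1, below the floor, at -0.39.

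**Figure D3:**
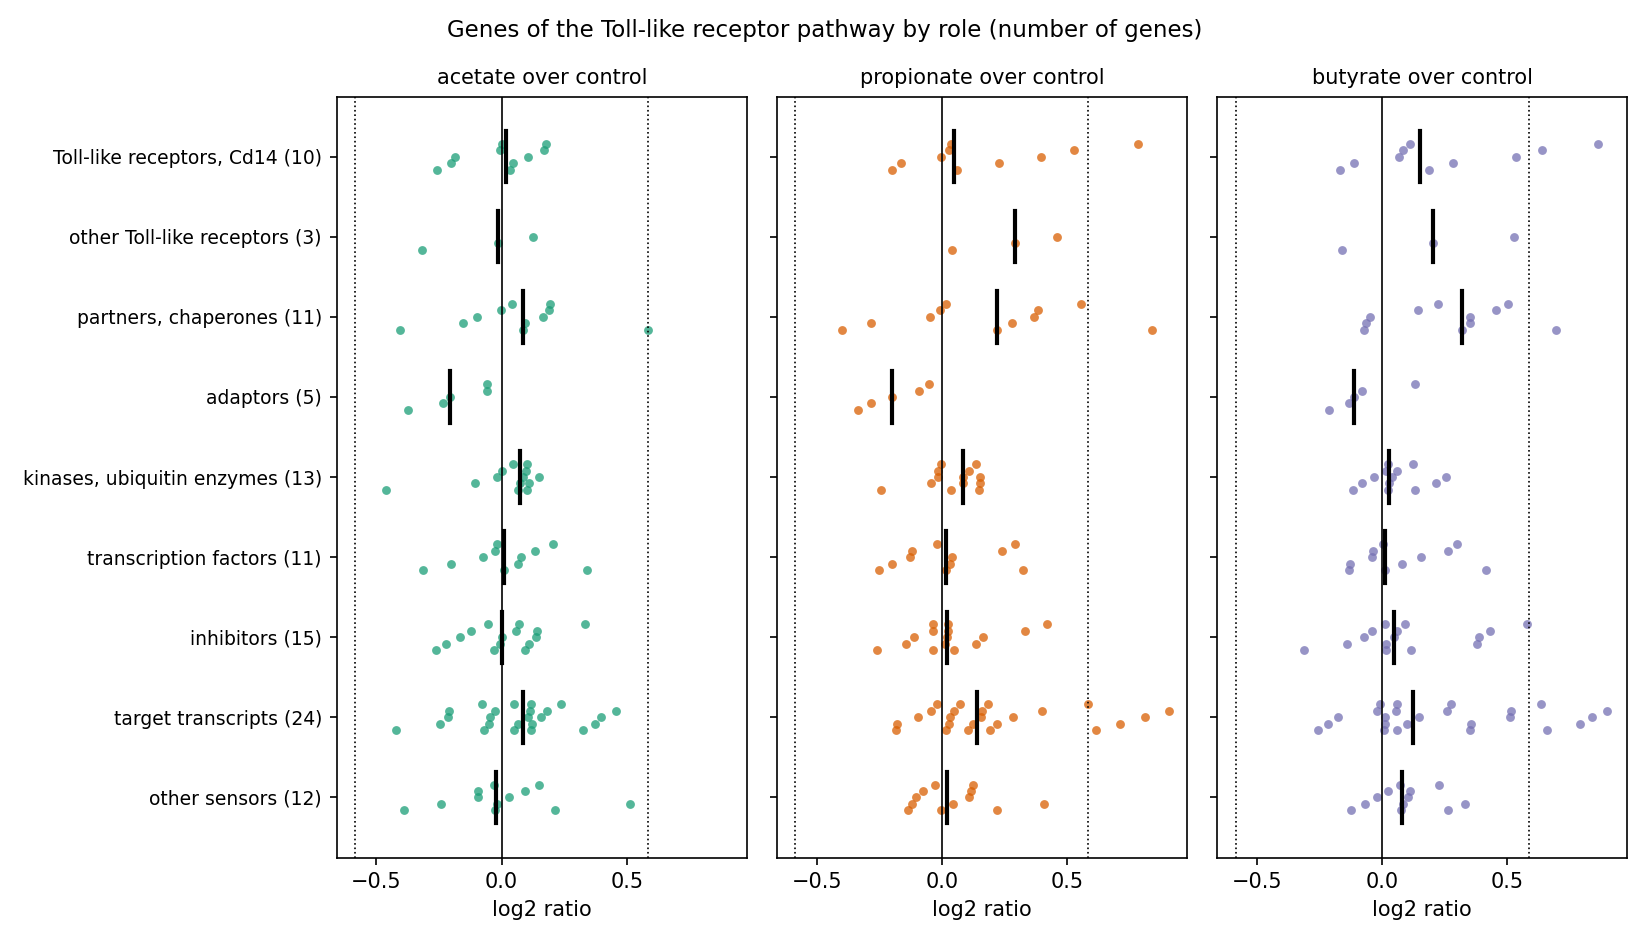
Log2 ratio to the control pool (horizontal axes) of each measured gene, grouped by role in the pathway, with acetate, propionate and butyrate; points are genes, black bars medians, dotted lines 1.5-fold, and the number of genes stands in brackets. Partners and chaperones have medians of 0.22 and 0.32 with propionate and butyrate, and adaptors have medians below 0 in every panel.

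Most markers of Kupffer cells, the liver's macrophages, were above control in the propionate and butyrate pools, as were Cd14, Tlr1 and Tlr2. Of 14 Kupffer cell markers, 5 were at least 1.5-fold higher with butyrate, 3 with propionate and 0 with acetate. The background was 0.728%, 0.776% and 0.696% of all genes in the same order. All 14 markers lay above the floor on average. Their summed level on the linear scale was 7408 with acetate, 8991 with propionate and 10504 with butyrate, against 7345 in control. The median log2 ratio was -0.15 with acetate, 0.28 with propionate and 0.55 with butyrate, and 6, 12 and 14 of the 14 lay above control. With acetate the sum and the median thus lay on opposite sides of control. The scavenger receptor Marco had log2 ratios of -0.24, 0.98 and 1.40 with acetate, propionate and butyrate, and the macrophage surface protein Adgre1 of -0.18, 0.72 and 0.76.

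The receptor genes were set against the median of these markers, as differences of log2 ratios. With butyrate, where the marker median was 0.55, Cd14 stood at 0.31, Tlr1 at 0.086 and Tlr2 at -0.015 from it, while Tlr4 stood at -0.72 and Tlr7 at -0.66. Of the 14 markers, 1 had a higher ratio than Cd14 with butyrate, 7 had a higher one than Tlr2, and all 14 had a higher one than Tlr4, Tlr5, Tlr6 and Tlr7. With propionate, where the marker median was 0.28, Tlr1 stood at 0.51, Cd14 at 0.25 and Tlr2 at 0.12 from it, and Tlr3 and Tlr4 had lower ratios than all 14 markers. With acetate, where the marker median was -0.15, the differences of the 10 genes ran from -0.11 for Tlr4 to 0.32 for Tlr1. All 10 lay within the range of the markers with acetate, which ran from -0.26 to 0.43, and with butyrate the markers themselves ran from 0.093 to 1.40. The part of these markers in the receptor values was not tested.

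Neutrophil and monocyte markers differed most from control in the butyrate pool. Of 12 measured, 7 were at least 1.5-fold higher with butyrate (background 0.728% of all genes) and 0 with propionate (0.776%) or acetate (0.696%). With acetate 1 of the 12 markers (Ngp) was lower by that fold (background 0.494%). Their summed level was 296 with acetate, 403 with propionate and 896 with butyrate, against 373 in control, and 8 of the 12 lay below the floor on average. The granule genes Ngp and S100a8 had ratios of -1.39 and -0.45 with acetate, -0.25 and -0.18 with propionate and 2.75 and 1.22 with butyrate. Over the whole list 8 of 12 lay above control with propionate, 12 with butyrate and 2 with acetate. From the median of these markers (0.66 with butyrate and 0.13 with propionate), Cd14 stood at 0.20 with butyrate and 0.39 with propionate, Tlr1 at -0.024 and 0.65, and Tlr2 at -0.13 and 0.26. With propionate 0 of the 12 had a higher ratio than Cd14 or Tlr1. The part of these cells in the receptor values was not tested either.

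Endothelial cells and hepatocytes, which also make some of the receptors, differed less from control. Endothelial markers (11 genes) had medians of 0.0092, -0.00050 and 0.090 with acetate, propionate and butyrate, with Lyve1 at 0.67 and Cdh5 at 0.24 with butyrate, and hepatocyte markers (10 genes) of -0.0041, 0.0090 and 0.012, with Cyp3a11 at 0.35 with acetate and Hnf4a at -0.16 with butyrate. With butyrate Cd14 had a higher ratio than all 11 endothelial and all 10 hepatocyte markers, and Tlr3 a higher one than 10 of the 11 and all 10, while Tlr4 had a lower one than all 11 and than 9 of the 10. Stellate cell and fibroblast markers (10 genes, medians of 0.27, 0.24 and 0.12) were led by Col3a1 (0.72) and Col1a1 (0.66) with acetate, where Cd14 stood at 0.035. Cholangiocyte markers (5 genes, 2 of them at or above the floor on average) had medians of 0.14, -0.25 and 0.20. With butyrate Epcam stood at 0.64 and Muc1, below the floor, at -0.52.

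Markers of the white blood cells that carry Tlr7 and Tlr9 were low on the arrays. Of 5 plasmacytoid dendritic cell markers 4 lay below the floor, with medians of 0.26, 0.16 and 0.067 with acetate, propionate and butyrate, and Spib and Pacsin1 stood at 0.45 and 0.39 with propionate. Of 6 B cell markers 5 lay below it, with medians of -0.059, 0.093 and 0.074, and Cd79b and Fcmr stood at 0.35 and 0.26 with propionate, where Tlr9 stood at 0.23 and Tlr7 at 0.061. Conventional dendritic cell markers (8 genes, 2 at or above the floor) had medians of 0.10, 0.20 and 0.048. Ccr7 stood at 0.58 with propionate and Itgax, below the floor, at 0.41 with acetate. T and NK cell markers (9 genes, 1 at or above the floor) had medians of -0.036, 0.12 and 0.14. Nkg7 stood at 0.50 with butyrate and Gzma, below the floor, at -0.38 with acetate. Neither of these 2 lists held a gene past 1.5-fold against control in any acid pool. The part of these white blood cells in the receptor values was not tested.

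**Figure D4:**
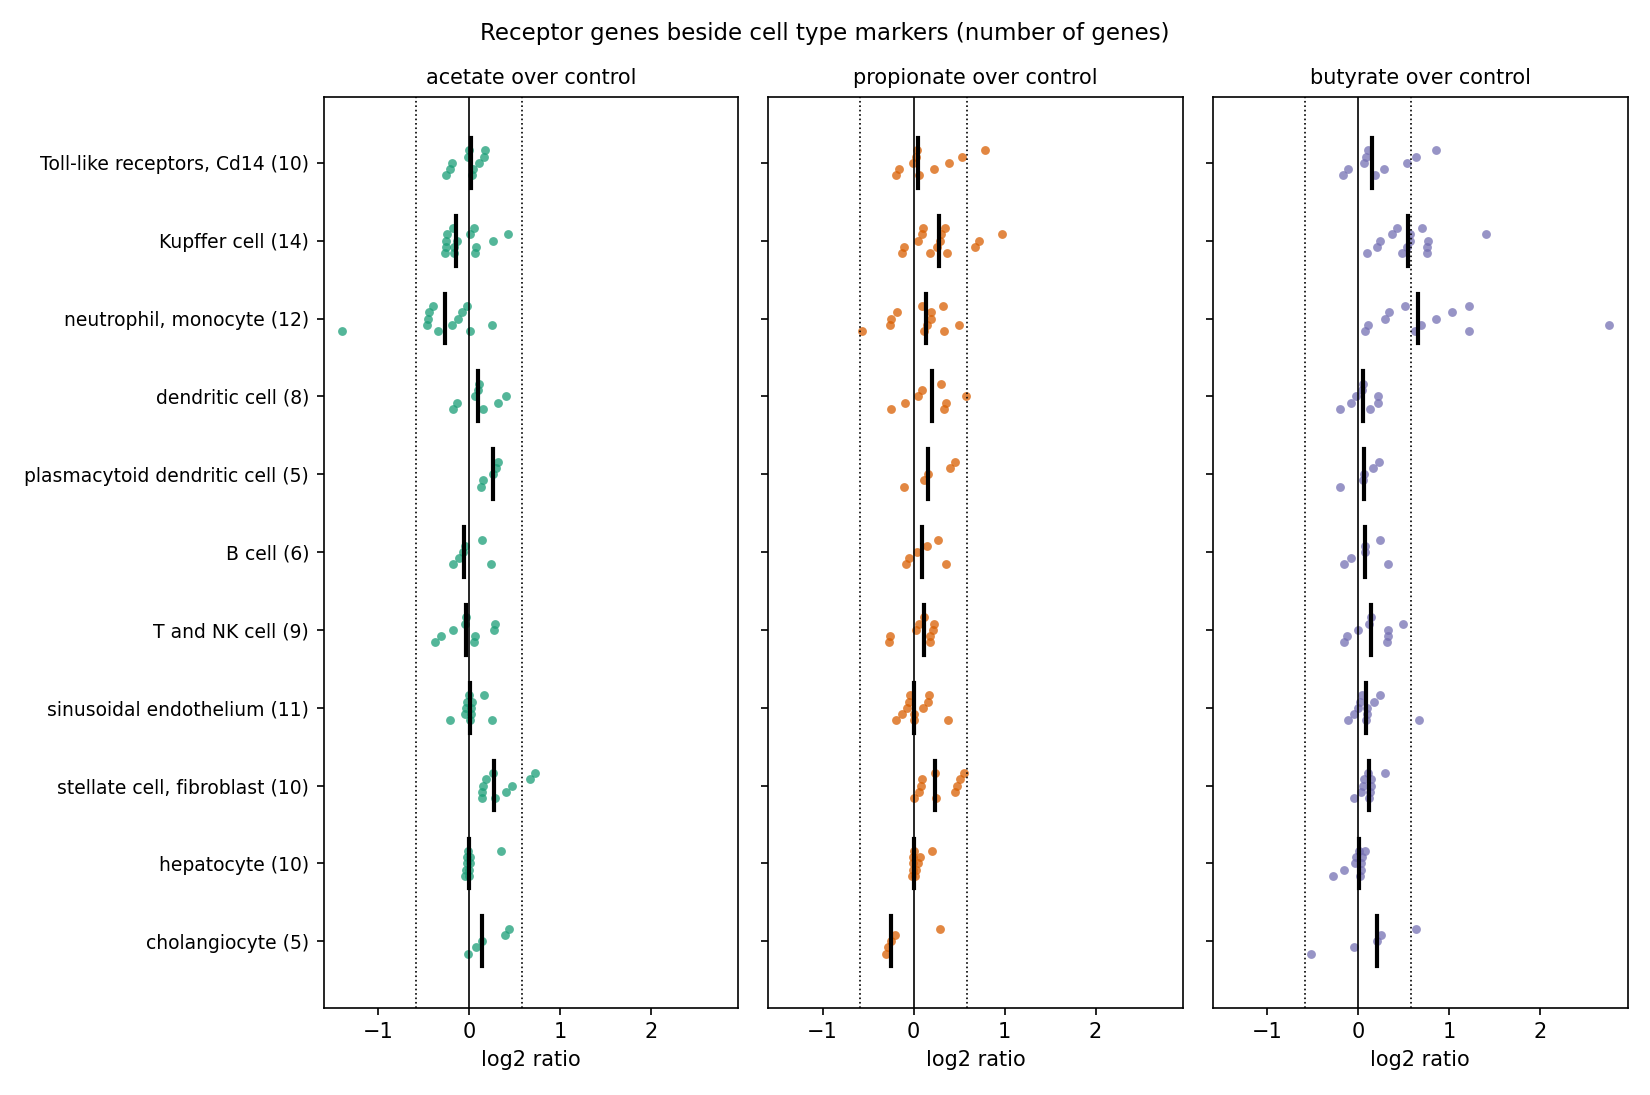
Log2 ratio to the control pool (horizontal axes) of the 10 receptor genes and of markers of 10 cell types with acetate, propionate and butyrate; points are genes, black bars medians and dotted lines 1.5-fold. Kupffer cell markers have medians of -0.15, 0.28 and 0.55 and neutrophil and monocyte markers of -0.27, 0.13 and 0.66 with acetate, propionate and butyrate.

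The profile of Cd14, the gene with the widest span over the pools, was set beside those of 9403 other genes at or above the floor by the Euclidean distance over the 3 log2 ratios to control. The nearest were Lcp2 (distance 0.087), Ms4a6c (0.11), Ccl5 (0.11), Igsf6 (0.14) and Treml4 (0.16). Lcp2 stood at 7.13 with acetate, 7.66 with propionate and 7.94 with butyrate, against 7.15 in control. Like Cd14 it was higher with butyrate and propionate and level with control with acetate, which follows from its choice by these ratios. A likeness over 4 pools rests on few values.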

How the data were processed

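Liver RNA pools of 4 infusion groups were measured on 1 array each. RMA is named in the submitters' processing notes, and the authors deposited log2 values, 1 per probe set and array. The RMA version and settings are not stated in the labels. The array medians lay between 5.11 and 5.12, so a shift of all genes in 1 pool could not be seen. Depth does not apply to arrays, and their number limits the precision.

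Of 35556 probe sets, 21218 had 1 gene symbol in GEO's platform annotation, 1881 several and 12457 none. Of the first, 21185 matched RefSeq (GRCm38.p6) by Entrez ID and 0 symbols changed. Probe sets sharing a symbol were averaged, and those with several or none were not used. Only promoters, from RefSeq, have coordinates here, since no source used names the array's genome build.

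Log2 ratios were computed with Python 3.11.15 and pandas 2.3.3, checked on simulated arrays, and called at 1.5-fold (0.58). Cyclic loess (limma 3.58.1), median centring, the highest probe set per symbol, the level floor, the mean of the other 3 pools and folds of 1.2 and 2 were tried as alternatives. The members and the 8 pathway and 13 cell type lists were chosen with earlier results of these data known. Named are all members, up to 5 genes of each pathway list past the fold and at or above the floor, filled to 2 by absolute ratio, the 2 largest of each cell type list, and the 5 genes nearest in profile to the member with the widest span.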

Additional observations from a re-analysis of the deposited data

How the results depend on the processing

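With cyclic loess and with arrays centred on genes at or above the floor, the counts of members past 1.5-fold in the 6 comparisons were unchanged. The medians of the members differed by less than the noise SD, and no member ratio shifted by over 0.043 on the log2 scale. Taking the highest probe set per symbol could not alter a member, since each had 1 probe set, so it is no check on them. With members at or above the floor (7 of 10, without Tlr1, Tlr4 and Tlr6), the count was 0 in place of 1 for propionate over control (background among genes at or above the floor 1.11%) and for propionate over acetate (0.553%), and 1 in place of 2 for butyrate over control (1.12%). With the mean of the other 3 pools as reference it was 0 for propionate (background 0.473%) and 1 for butyrate (0.946%), and the median for acetate was -0.15 in place of 0.018. That reference shifted member ratios by up to 0.47. At 1.2-fold the counts were 0 (acetate over control, background 12.2%), 3 (propionate over control, background 13.3%), 4 (butyrate over control, 11.9%), 3 (propionate over acetate, 9.58%), 4 (butyrate over acetate, 14.6%) and 2 (butyrate over propionate, 13.6%). At 2-fold all 6 counts were 0. No paired analysis was possible because each group has 1 array, and for the same reason no replicate could be left out. Low level, below the floor, limits Tlr1, Tlr4, Tlr6 and, in the acetate and control pools, Tlr2. The floor is the median of all genes' means and not a background level. Of the 10 members only Tlr6 had a mean under 4.14, the 95th percentile of the receptor genes taken as not used by liver.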
